A study of Rattus norvegicus with 6 samples.

Results

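The 10 genes below belong to the reproductive and lactogenic hormone axes and were followed in the hippocampus of male rats after removal of the testes. They were taken as non-control array probes whose RefSeq accession carries the current symbol Lhcgr, Fshr, Gnrh1, Gnrhr, Prlr, Prl, Kiss1, Kiss1r, Gh1 or Ghr. All 10 genes had a probe, 12 probes in all, among 15154 genes with a symbol on the array. Ghr had 3 probes and the other 9 genes had 1 each, and the probes of Gnrh1 and Prlr were printed 10 times per array. The animals were male Wistar rats that underwent orchidectomy (removal of both testes) or a sham operation at 2 months of age. Hippocampal RNA was collected 2 weeks after surgery, under ketamine and medetomidine anaesthesia in both groups. Each group held 3 biological replicates, each on its own 1-colour Agilent array, and the labels do not say how many rats a sample holds. Hippocampal tissue was measured in bulk, so fewer cells of a type and less RNA per cell cannot be told apart.

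Kisspeptin, the product of Kiss1, acts through Kiss1r on the neurons that release gonadotropin-releasing hormone (Gnrh1), which acts through Gnrhr on the pituitary to release luteinizing and follicle-stimulating hormone. Those hormones act on the gonad through Lhcgr and Fshr, and testicular androgen restrains the hypothalamic and pituitary steps. Prolactin (Prl) and growth hormone (Gh1) come from the pituitary and act through the cytokine receptors Prlr and Ghr, which signal through JAK2 and STAT5. In the brain, Prlr is known to be abundant in the choroid plexus, the epithelium that makes cerebrospinal fluid, and Kiss1r has been described in granule cells of the rat dentate gyrus.

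Signals are given as log2 intensity after subtraction of the array's own 75th percentile. A probe is called well above background where the scanner software flagged at least 50% of its spots so. Levels of different probes are not comparable with each other. Per array, 23785 to 26173 of the 30367 probes passed that mark, and precision is limited by how few arrays there were. The array labelled sham 2 stood apart from the other 5, called the ordinary arrays below. The mean over 17 choroid plexus markers was 4.64 on it and -3.79 to -2.53 on the others, with the summed linear level at 485 times the 75th percentile there and 13.4 to 44.5 times elsewhere. The mean over 10 hippocampal excitatory neuron markers was -5.37 on it and 0.42 to 1.14 on the others, and Grin1, Prox1 and Slc17a7 were not well above background on it. Results that rest on that array are given with and without it.

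No tested member differed between orchidectomized and sham animals past the threshold. Lhcgr, Prl, Gh1 and Prlr did not pass the brightness filter with or without the array labelled sham 2, so they are not among the tested members. The member that varied most among the arrays was Prlr, at 2.19 on the array labelled sham 2 and no higher than -7.15 on the other 5. Gnrhr and Kiss1r were low on that same array. Among the members that passed the brightness filter, Kiss1r alone had groups that did not overlap, with all 3 orchidectomized values above all sham values. Groups did not overlap, in either direction, for 8% of all tested probes over 6 arrays and for 16.3% when the array labelled sham 2 was left out.

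For the 3 genes that stood apart on the array labelled sham 2, the 250 bases before the annotated start are given from RefSeq on build GRCr8, 5′ to 3′. The 4 stretches are chr2:60861515-60861764 (plus strand) and chr2:60909409-60909658 (plus strand) for the 2 starts of Prlr, chr14:22211416-22211665 (plus strand) for Gnrhr and chr7:10439425-10439674 (minus strand) for Kiss1r. Capitals mark 3 motifs searched on both strands with any overlap allowed. These are AGAACA, the core hexamer of androgen and glucocorticoid response elements, TTCNNNGAA, the site bound by STAT5, and TATAAA, the TATA box.
Prlr, upstream start: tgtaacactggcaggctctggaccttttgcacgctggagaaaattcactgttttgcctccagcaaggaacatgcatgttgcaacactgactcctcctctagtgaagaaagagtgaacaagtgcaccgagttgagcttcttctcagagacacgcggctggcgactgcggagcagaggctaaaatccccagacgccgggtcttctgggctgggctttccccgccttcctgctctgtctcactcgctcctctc
Prlr, downstream start: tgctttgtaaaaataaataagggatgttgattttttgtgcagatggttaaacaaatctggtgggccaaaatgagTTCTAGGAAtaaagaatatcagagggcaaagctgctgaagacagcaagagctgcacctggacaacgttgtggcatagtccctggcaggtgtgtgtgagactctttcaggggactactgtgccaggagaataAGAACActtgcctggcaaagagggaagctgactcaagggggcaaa
Gnrhr: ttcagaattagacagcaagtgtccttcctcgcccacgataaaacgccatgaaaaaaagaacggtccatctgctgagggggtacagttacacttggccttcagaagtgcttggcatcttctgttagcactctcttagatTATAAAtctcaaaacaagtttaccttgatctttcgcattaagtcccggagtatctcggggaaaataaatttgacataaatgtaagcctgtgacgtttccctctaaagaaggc
Kiss1r: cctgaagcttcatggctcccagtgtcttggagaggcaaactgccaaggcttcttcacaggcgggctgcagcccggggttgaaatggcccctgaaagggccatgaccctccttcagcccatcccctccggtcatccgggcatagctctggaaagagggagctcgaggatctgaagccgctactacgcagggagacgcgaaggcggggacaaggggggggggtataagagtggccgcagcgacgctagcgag

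The downstream start of Prlr had 1 match to TTCNNNGAA, which begins 176 bases before the start, and 1 match to AGAACA. Gnrhr had 1 match to TATAAA, and neither the upstream start of Prlr nor Kiss1r had a match to any of the 3 motifs. Among 33469 rat promoter stretches of the same length, 17.5% held AGAACA, 7.67% held TTCNNNGAA and 12.9% held TATAAA. The motifs CCAAT (34.0%) and CANNTG (65.5%) were searched too and are not marked. These matches describe letters only, since no binding or transcription start was measured, and the Prlr probe carries the accession NM_012630 without telling the starts apart. The RefSeq table held promoters for 8 of the 10 members.

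**Figure D1:**
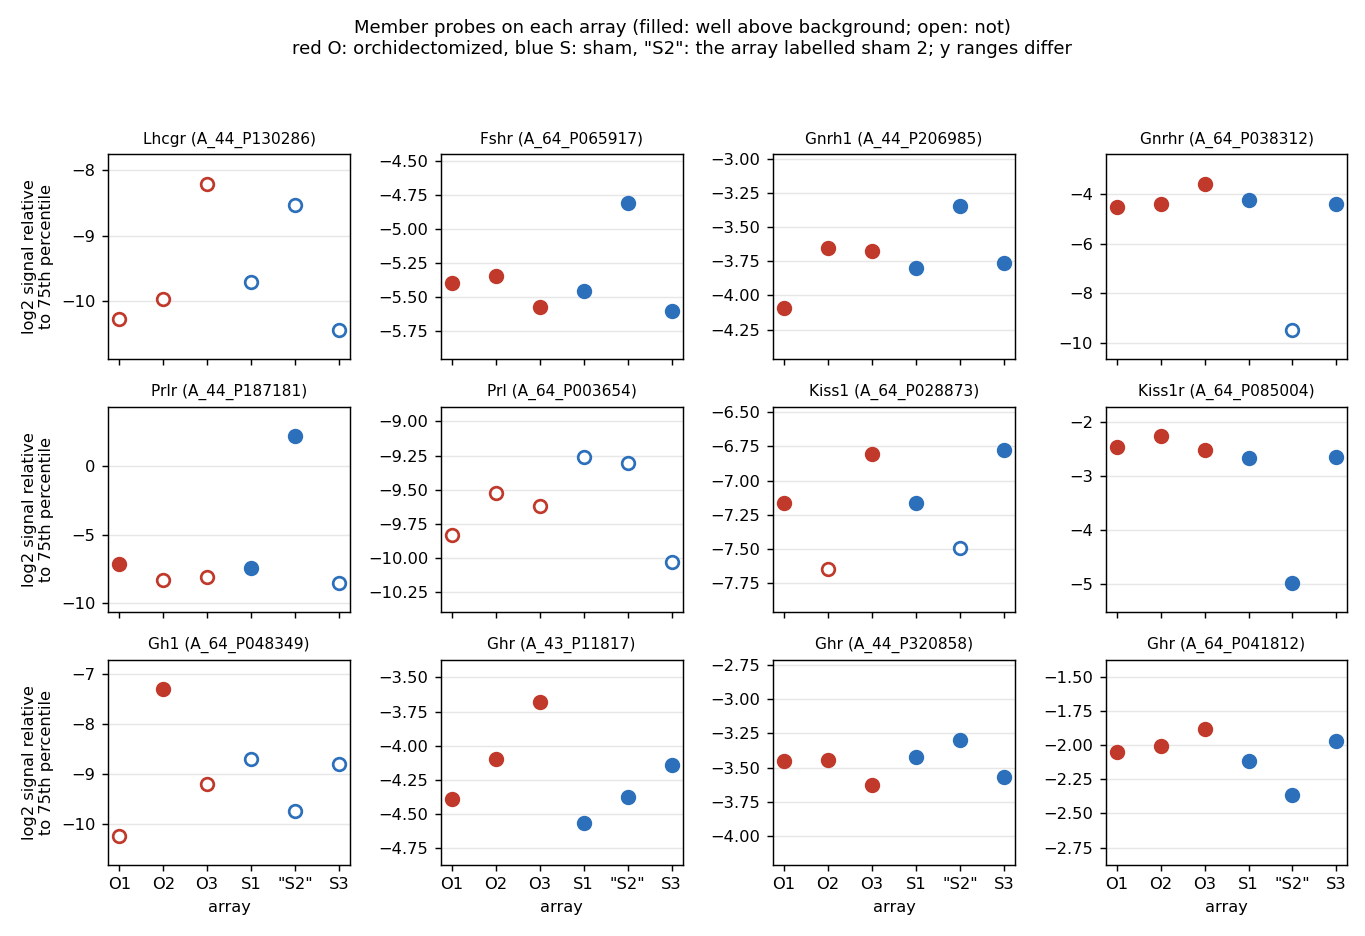
Log2 signal of each of the 12 member probes (y axis, relative to the array's 75th percentile, ranges differ between panels) on each array (x axis). Red points are orchidectomized arrays, blue points are sham arrays, and open points are not well above background. Prlr reaches 2.19 on the array labelled sham 2, where Gnrhr lies at -9.49 and Kiss1r at -4.98.

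Of the 12 probes, 6 (those of Fshr, Gnrh1, Kiss1r and the 3 of Ghr) were well above background on all 6 arrays. The Gnrhr probe was so on 5 arrays, Kiss1 on 4, Prlr on 3 and Gh1 on 1. Neither the Lhcgr nor the Prl probe passed on any of them. Limma was fitted to all probes that were well above background on every array of at least 1 group, and p-values were adjusted over all of them by Benjamini-Hochberg. Over 6 arrays 7 member probes of 5 genes were tested, and without the array labelled sham 2, 8 probes of 6 genes. Gnrhr entered the 6-array test through the orchidectomized arrays alone, and Kiss1 entered the 5-array test through the sham arrays alone. A probe that enters through 1 group is favoured to be higher there.

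In the test over 6 arrays 0 of 7 member probes were called at an adjusted p under 0.05, against 0% of all 24630 tested probes. Without the array labelled sham 2, 0 of 8 were called, against 0% of 25208. An unadjusted limma p under 0.05 was reached by 0 member probes in either comparison, while 0.731% and 2.71% of all tested probes reached it. The median difference of the member probes was 0.17 over 6 arrays, beside -0.016 for all tested probes. With the array labelled sham 2 left out these medians were 0.075 and -0.024. The members' adjusted p from limma lay between 0.775 and 0.859 over 6 arrays and between 0.988 and 0.996 without that array. Groups did not overlap for 1 of 7 member probes over 6 arrays and for 1 of 8 without the array labelled sham 2, Kiss1r in both cases, with the orchidectomized group higher. Among all tested probes 3.26% were higher and 4.74% lower in that group without overlap over 6 arrays, and 6.24% were higher and 10% lower without the array labelled sham 2.

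**Figure D2:**
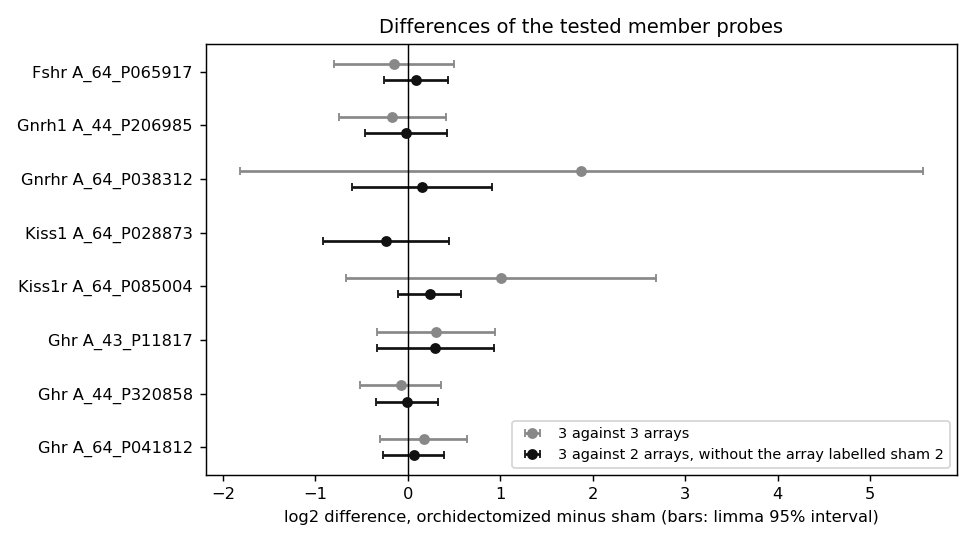
Log2 difference, orchidectomized minus sham, of each tested member probe with its limma 95% interval, with all 6 arrays (grey) and with the array labelled sham 2 left out (black). Every interval crosses 0, and the intervals of Gnrhr and Kiss1r are widest with all 6 arrays, from -1.82 to 5.58 for Gnrhr.

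Kiss1r encodes the kisspeptin receptor. Its log2 signal was -2.46, -2.27 and -2.53 on the orchidectomized arrays, -2.66 on sham 1 and -2.65 on sham 3, and -4.98 on the array labelled sham 2. All 3 orchidectomized values were thus above both ordinary sham values, by a small margin, and the array labelled sham 2 was far lower. The means without that array were -2.42 ± 0.14 (SD, n = 3) and -2.66 ± 0.01 (SD, n = 2). The difference was 0.24 (SE 0.14) with a 95% interval of -0.11 to 0.58 (limma adjusted p 0.988). With all 6 arrays it was 1.008 (SE 0.67; limma adjusted p 0.775), a value that the array labelled sham 2 sets. On the slide shared by orchidectomized 3 and sham 1 the values differed by 0.14, and within the first scan day, which held the 3 orchidectomized arrays and sham 1, by 0.24. The mean of the other 5 arrays was 5.50-fold brighter than the array labelled sham 2.

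Kiss1, the ligand gene, was near the detection limit. Its log2 signal was -7.16, -7.65 and -6.81 in orchidectomized animals and -7.16, -7.49 and -6.78 in sham animals, in the order of replicates 1 to 3. The values of the groups interleaved, and orchidectomized 2 and the array labelled sham 2 were not well above background. Without the array labelled sham 2 the difference was -0.24 with a 95% interval of -0.92 to 0.45 (limma adjusted p 0.988). Its sign turned with quantile normalization, with another background correction and on the shared slide.

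Gnrh1 encodes the gonadotropin-releasing hormone precursor. Its probe was well above background in every used spot of every array, with median processed intensities between 88.2 and 189. Log2 signals were -4.09, -3.65 and -3.67 in orchidectomized and -3.80, -3.34 and -3.76 in sham animals. Orchidectomized 1 was the lowest array and the array labelled sham 2 the highest, and the groups overlapped. The difference without the array labelled sham 2 was -0.024 with a 95% interval of -0.47 to 0.42 (limma adjusted p 0.992). As a ratio the interval runs from 0.723 to 1.34. With all 6 arrays it was -0.17 (SE 0.23; limma adjusted p 0.784). The SD over the spots of an array was 0.057 to 0.091, below the SD of 0.25 over the 3 orchidectomized arrays and above the SD of 0.027 over sham 1 and sham 3.

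Gnrhr encodes the receptor of that hormone. It stood at -4.52, -4.38 and -3.57 on the orchidectomized arrays and at -4.23 on sham 1 and -4.38 on sham 3. Orchidectomized 3 was the brightest array, and the remaining values of both groups interleaved. On the array labelled sham 2 the probe read -9.49 and was not well above background, and the other 5 arrays were at least 9.85-fold brighter. The bound sets their mean against the lowest signal of any probe well above background on the dim array. Without that array the difference was 0.15 with a 95% interval of -0.60 to 0.91 (limma adjusted p 0.988). It was -0.14 without orchidectomized 3 as well. With all 6 arrays the fitted value was 1.88 (SE 1.49; limma adjusted p 0.775), and this value includes a sham array below background.

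Fshr, the receptor of follicle-stimulating hormone, was measured on all arrays. It read -5.40, -5.35 and -5.57 in orchidectomized animals and -5.45, -4.81 and -5.60 in sham animals. The 5 ordinary arrays spanned 0.25 log2 units, and the array labelled sham 2 lay above all of them. The difference was 0.087 without that array, with a 95% interval of -0.26 to 0.43 (limma adjusted p 0.988), and -0.15 over 6 arrays with an interval of -0.80 to 0.50 (limma adjusted p 0.815). The sign thus turned with that array.

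Lhcgr, the receptor of luteinizing hormone, never rose well above background, so no level or fold is given. Its processed intensities ran from 1.44 to 4.98 on the scanner scale. Among the hormone genes themselves, the beta subunit gene of follicle-stimulating hormone, Fshb, was well above background on all 6 arrays and spanned -6.00 to -5.61. It differed by -0.10 without the array labelled sham 2 (limma adjusted p 0.988). Lhb, the beta subunit gene of luteinizing hormone, was picked out after its values were seen. It read -3.57 to -2.61 on 5 arrays and 1.91 on the array labelled sham 2, 33.7-fold above the mean of the others. Without that array it differed by -0.12 between the groups (limma adjusted p 0.988). Cga, the shared alpha subunit gene, was well above background on 3 of 6 arrays, and Tshb, the thyrotropin beta subunit gene, on 0 of 6; both were likewise picked after their values were seen.

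Prl and Gh1 mark the lactotrophs and somatotrophs of the pituitary. Prl never rose well above background, with processed intensities between 1.42 and 2.92. Gh1 was well above background on orchidectomized 2 alone, at -7.30, and read -10.24 to -8.70 on the other 5. Neither entered a test. Of 12 pituitary markers on the array, 7 to 9 were well above background per array. The sum of their linear levels was 1.013 to 1.22 in orchidectomized animals and 0.99 and 1.27 on sham 3 and sham 1. It was 5.32 on the array labelled sham 2, where Lhb read 1.91 in log2. The list median was -5.74 on that array and -5.68 to -5.35 elsewhere, so the larger sum there does not describe the list as a whole. The part of pituitary RNA in the members' values was not tested.

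Prlr, the prolactin receptor gene, was the member with the widest range. Median processed intensities were 12.5, 6.66 and 4.07 on the orchidectomized arrays, 11.5 and 7.22 on sham 1 and sham 3, and 8529 on the array labelled sham 2. The array labelled sham 2 was bright in all 10 spots, and the other 5 were near the detection limit. The mean log2 signals were -7.15, -8.33 and -8.13 for orchidectomized 1 to 3, -7.48 for sham 1, -8.54 for sham 3 and 2.19 for the array labelled sham 2. At least 50% of the spots were well above background on orchidectomized 1 and sham 1 among the ordinary arrays. On sham 1 that was 5 of 10 spots, and the value there was the lowest of any probe counted as well above background on that array. Against the mean of the ordinary arrays, of which 2 measured the probe, the array labelled sham 2 was brighter by at least 910.0-fold. The SD over spots was 0.036 there and 0.29 to 0.61 on the others.

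The mean over the choroid plexus markers, like Prlr, was highest on the array labelled sham 2. Their list mean was -2.53, -2.80 and -3.41 on orchidectomized 1 to 3, -3.04 on sham 1, -3.79 on sham 3 and 4.64 on the array labelled sham 2. Among the ordinary arrays no order is read for Prlr, since 3 of the 5 did not measure it. Of the 17 markers, 16 or 17 were well above background on each array. Cldn2, a tight junction gene of that epithelium, read 4.77 on the array labelled sham 2 and -7.73 to -5.52 elsewhere. Kl, which encodes klotho, read 3.72 against -7.87 to -5.65. Kcnj13, a potassium channel gene, Sostdc1 and Ttr, the transthyretin gene, were saturated on the array labelled sham 2. Ttr was also saturated on 1 of the 5 ordinary arrays. It read 5.16 on the array labelled sham 2 and 2.99 to 5.20 elsewhere. Saturated readings are capped, so no order of that array against the others is read for Ttr. The part of choroid plexus RNA in the Prlr signal was not tested. Prlr did not pass the brightness filter in either comparison, so orchidectomized and sham animals were not tested for it.

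**Figure D3:**
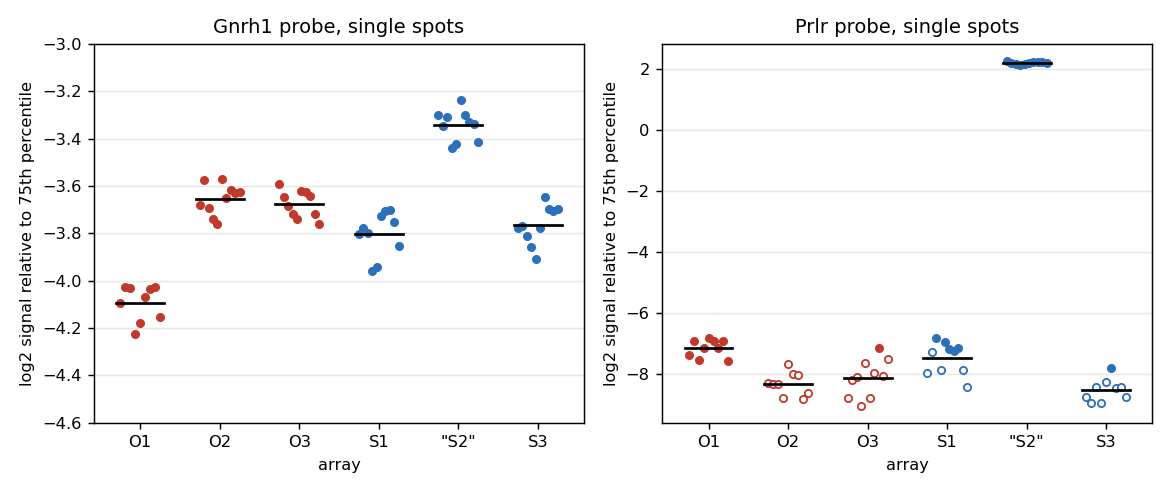
Log2 signal (y axis, relative to the array's 75th percentile) of the single spots of the Gnrh1 probe (left) and the Prlr probe (right) on each array (x axis). Red is orchidectomized and blue is sham, open spots are not well above background and black lines are means. Gnrh1 spots agree within an SD of 0.057 to 0.091, and Prlr spots lie near 2.19 on the array labelled sham 2 and at -6.82 or lower elsewhere.

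**Figure D4:**
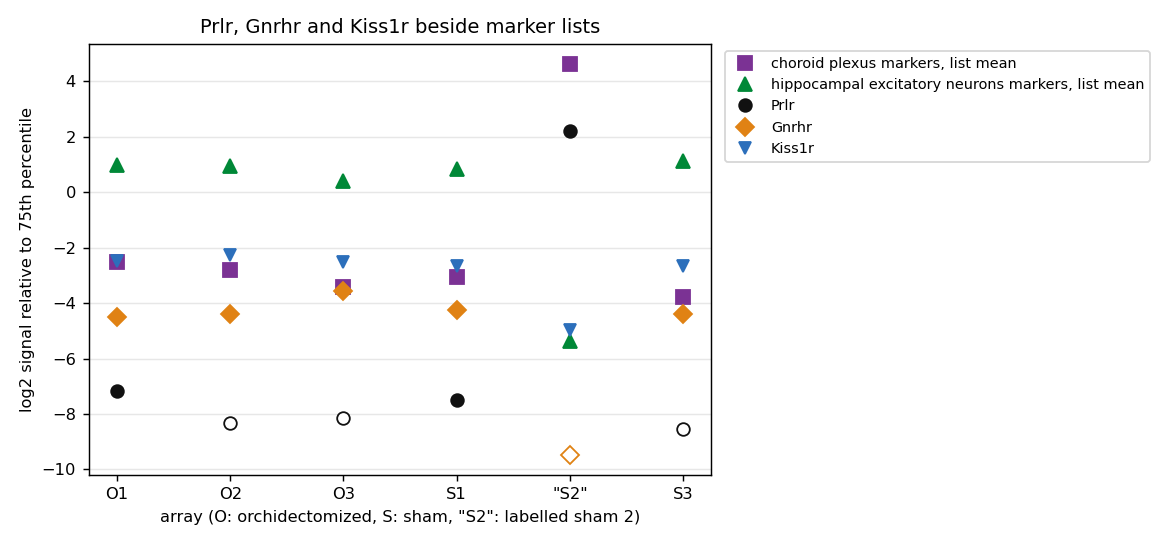
Log2 signal (y axis) of Prlr, Gnrhr and Kiss1r and the list means of choroid plexus and hippocampal excitatory neuron markers on each array (x axis). Open points are not well above background, and levels of different series are not comparable. On the array labelled sham 2 Prlr and the choroid plexus list are high (2.19 and 4.64), and Gnrhr, Kiss1r and the neuron list are low (-9.49, -4.98 and -5.37).

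Gnrhr and Kiss1r were low on the array on which the excitatory neuron markers were low, with 7 of those 10 markers well above background there and all 10 on every other array. Neurod6, a transcription factor gene of excitatory neurons, read -6.81 there and 2.18 to 2.78 elsewhere. Hypothalamic markers had a list mean of -7.26 on it, -6.71 to -6.51 on the orchidectomized arrays, -5.83 on sham 1 and -6.84 on sham 3. Of 13 such markers 6 to 8 were well above background per array, and Fezf1, Hmx2, Sim1 and Six6 were so on none. Sham 1 had the highest hypothalamic list mean. The Gnrh1 value of sham 1, -3.80, lay within the range of the other arrays, and a part of hypothalamic RNA in it was not tested.

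Ghr encodes the growth hormone receptor, and its 3 probes share the accession NM_017094. The probe A_64_P041812 read -2.05, -2.01 and -1.88 in orchidectomized animals and -2.11, -2.37 and -1.97 in sham animals. The groups overlapped, with the array labelled sham 2 the lowest. It differed by 0.063 without that array, with a 95% interval of -0.26 to 0.39 (limma adjusted p 0.988), and by 0.17 with it (limma adjusted p 0.775). The probe A_44_P320858 read -3.63 to -3.44 in orchidectomized and -3.57 to -3.30 in sham animals and differed by -0.011 without the array labelled sham 2 (limma adjusted p 0.996). The probe A_43_P11817 was the most variable, from -4.39 to -3.68 in orchidectomized and from -4.56 to -4.14 in sham animals, and differed by 0.30 with a 95% interval of -0.33 to 0.93 (limma adjusted p 0.988). On the shared slide the 3 probes differed by 0.23, -0.20 and 0.89, in the order given, so they disagreed in sign there. On the array labelled sham 2 the 3 probes lay within 0.36 log2 units of the mean of the others.

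Genes further along these pathways were read from lists, with the brightest tested probe per gene, without the array labelled sham 2. Over all 12862 named genes tested, 0 were called, 5599 were higher and 7263 lower in the orchidectomized group, and the median difference was -0.028. Of 19 signalling genes of the prolactin and growth hormone receptors, which include Jak2, Stat5a and Stat5b, 0 were called, 9 were higher and 10 lower, with a median of -0.054. Irs2, an insulin receptor substrate, differed by -0.33, Sos1, a Ras activator, by -0.25, Ptpn1, a tyrosine phosphatase, by -0.20 and Pik3r1, a phosphoinositide kinase subunit, by 0.29. Of 10 target and feedback genes of that pathway 0 were called, 3 were higher and 7 lower, with a median of -0.058. Cish, a feedback inhibitor induced by STAT5, read -3.24 to -2.77 on the ordinary arrays and -1.14 on the array labelled sham 2, and differed by -0.23 without the latter. Pim1, a kinase gene, differed by -0.66, Myc by -0.31 and Igfals, which encodes a carrier of insulin-like growth factors, by 0.12.

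The coupling genes of the gonadotropin and GnRH receptors were 17, of which 0 were called, 10 were higher and 7 lower, with a median of 0.041. Rgs2, a G protein regulator, differed by -0.34, Adcy3, an adenylyl cyclase, by 0.25 and Itpr1, a calcium release channel that was saturated on 1 of the 5 arrays, by 0.22. Gnas, the stimulatory G protein subunit gene, was saturated on all 6 arrays, so no difference is given for it, though it is among those counted. In the network of GnRH and kisspeptin neurons 0 of 13 genes were called, 5 were higher and 8 lower, with a median of -0.034. Tacr3, the neurokinin B receptor gene, showed the largest value there, 1.004 (SE 0.50; limma adjusted p 0.988), which was 0.48 without orchidectomized 3. Npvf, which encodes a peptide that inhibits GnRH neurons, differed by -0.69, Gal, the galanin gene, by -0.37 and Nos1, a nitric oxide synthase gene, by 0.47. Of 18 genes that control growth hormone and prolactin release, 0 were called, 8 were higher and 10 lower, with a median of -0.027. Ghrhr, the growth hormone-releasing hormone receptor gene, which entered the test through the sham arrays, differed by -1.02, Sstr4 and Sstr1, somatostatin receptor genes, by 0.54 and 0.34, and Ghsr, the ghrelin receptor gene, by -0.23.

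Among pituitary hormones and factors, 0 of 8 tested genes were called, 4 were higher and 4 lower, with a median of -0.0058. Lhx4, a transcription factor gene of pituitary development, differed by 0.17 and Pomc, the gene of the corticotropin precursor, by 0.13. Of the hypothalamic markers 0 of 6 were called, 1 was higher and 5 lower, with a median of -0.30; Agrp differed by -0.38, Nkx2-1 by -0.62, Avp by -0.21 and Hmx3 by -0.50. Of the excitatory neuron markers 0 of 10 were called, 1 was higher and 9 lower, with a median of -0.16; Neurod6 differed by -0.34, Wfs1 by -0.49, Grin1 by -0.60 and C1ql2 by -0.14. Of the choroid plexus markers 0 of 17 were called, 14 were higher and 3 lower, with a median of 0.30; Ttr differed by 1.58, Sostdc1 by 1.34, Cldn2 by 1.15, Kcnj13 by 1.02, Kl by 0.92 and Tmem72 by 0.91. The Ttr value includes 1 saturated array, and Tmem72 entered the test through the orchidectomized arrays alone. With the array labelled sham 2 the medians of the last 2 lists were 1.96 and -2.42, with the opposite sign, and 0 genes of any list were called.

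The differences of single list genes rested on few arrays. When each further array was left out in turn, an alternative added after the data were seen, 33 of 38 genes picked from the lists moved by over 1.5 times or turned in sign. Signs turned for 5 of them. Without sham 1, Pim1 differed by 0.062, Nkx2-1 by 0.067 and Hmx3 by 0.28. Without sham 3, Pomc differed by -0.20 and Igfals by -0.077.

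**Figure D5:**
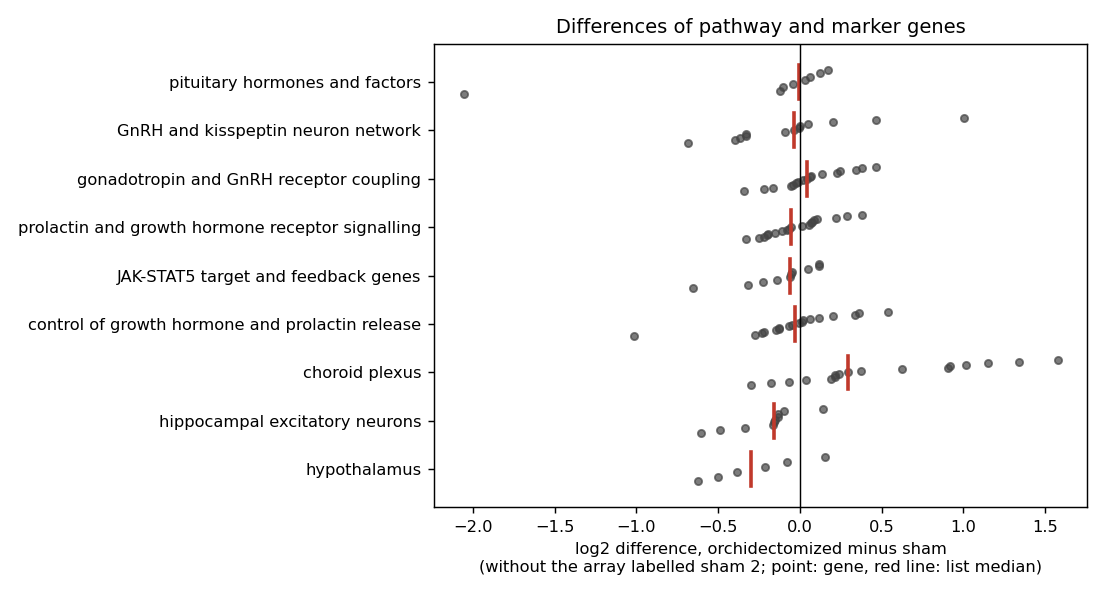
Log2 difference, orchidectomized minus sham, without the array labelled sham 2 (x axis), of each tested gene of the pathway and marker lists (y axis). Points are genes and red lines are list medians, which run from -0.30 for hypothalamus to 0.30 for choroid plexus.

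The genes whose profile over the 6 arrays was most like that of a member were ranked by Pearson correlation with the member's brightest probe. For Prlr these were Lypd3, Col8a1 and Cep41, with r of 0.9996, 0.9995 and 0.9992, and 0.96 to 0.98 over the 5 ordinary arrays. Prlr was not well above background on orchidectomized 2, orchidectomized 3 and sham 3, so nothing is read from the latter range. Col8a1 read 4.07 on the array labelled sham 2 and -6.21 to -5.07 elsewhere. For Gnrhr they were Sln, Ppp1r14c and Farp1, and Sln read -6.91 on that array and -2.89 to -2.20 elsewhere. For Kiss1r they were Lss, Cacng4 and Syk, with r of 0.96 to 0.99 over the 5 ordinary arrays. Fshr was most like Acvrl1, Bpnt2 and Cars1, Ghr like Lrrc45, Zfp251 and Wdr24, Kiss1 like Abt1, Iqch and Tmem202 and Gnrh1 like Zbtb9, Fam149b1 and Crot, the last with r of 0.94 over 6 and 0.85 over 5 arrays. All these correlations rest on few arrays that share scaling. They were picked as the highest of 12631 genes, and for Prlr, Gnrhr and Kiss1r the array labelled sham 2 is the point far from the others. Fshr also stood apart there, at -4.81 against -5.60 to -5.35 elsewhere. Kiss1 was not well above background on orchidectomized 2 and the array labelled sham 2, and Gnrhr was not on the latter.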

How the data were processed

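Hippocampal RNA of 6 samples from male Wistar rats was analysed, 200 ng per sample, amplified and labelled with Cy3 per the labels' protocols. Groups and replicate numbers come from the labels. Per the file headers, 1-channel arrays were scanned and quantified by Agilent Feature Extraction 10.5.1.1, and the deposited intensity used here is its processed signal. In the value table the authors deposited, log2 values match that signal, up to 1 constant per array, to within 0.01 for 99.5% to 99.7% of probes. The constants ran from -0.32 to 0.72 and the column medians from 7.62 to 8.04, and the origin of the constants is unknown.

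Control spots (1377 of 44254) and outlier spots were left out, log2 spot values averaged per probe and each array's 75th percentile subtracted. Accessions were matched without versions to the GRCr8 gene table, which named 18004 of 30367 probes. No coordinates of array probes are given because the headers name another build. Limma 3.58.1 in R 4.3.3 (lmFit, eBayes, two-sided, Benjamini-Hochberg over all tested probes) compared the groups over 6 arrays (24630 probes) and without the array labelled sham 2 (25208). Fits were tested on simulated data with the same spread for every probe and no outlying array, unlike the data here. The members and lists were chosen with earlier results of these data known.

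Every member is named. From each list the 4 genes with the smallest limma p without the array labelled sham 2 are named, with Ttr, Kl, Cldn2 and Kcnj13, and the 3 genes most correlated with each member that was well above background on at least 3 arrays. A gene that this rule picks is not reported here. Of 4 slides, 1 held orchidectomized 3 and sham 1, and of 2 scan days the first held these and orchidectomized 1 and 2. Alternatives were median and quantile scaling, normexp with an offset of 50 on median spot signals in place of the mean signals, other filters, deposited values, other variance models, blocks and leaving out each array. Same-numbered arrays of the groups did not deviate together from their group means (correlations of 0.027, -0.023 and -0.018). The array labelled sham 2 shifts the sham mean, so this check cannot exclude pairs. The numbers were not taken as pairs.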

Additional observations from a re-analysis of the deposited data

How the results depend on the processing

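Across the alternatives 0 member probes were called, and 221 of 245 recomputed member differences kept their sign. That count includes alternatives that leave a difference unchanged by construction, such as other filters, so it overstates how stable the signs were. Median scaling moved the median of all tested probes to -0.10 over 6 arrays. Of all tested probes, 13 were called with array weights and 1 with quantile normalization over 6 arrays. Without the array labelled sham 2 the counts were 1 with median scaling, 2 with quantile normalization, 10 when scan day was a block, 18 on the deposited values, and 0 to 251 when a further array was left out, 251 without sham 3 and 22 without sham 1, where a lone sham array was assumed to vary like the others. With the replicate block 0 probes were called in either comparison. Over 6 arrays signs turned for Fshr with normexp (0.080), array weights (0.084) and scan day as a block (0.015), with a range of -0.31 to 0.087 when arrays were left out. They also turned for Ghr A_44_P320858 with normexp (0.013), Gnrh1 with slide as a block (0.13) and Gnrhr with array weights (-0.13). Without the array labelled sham 2 they turned for Gnrh1 with quantile normalization (0.0073), normexp (0.12), deposited values (0.032) and slide as a block (0.13), for Ghr A_44_P320858 with normexp (0.095), deposited values (0.043) and array weights (0.040), for Kiss1 with quantile normalization (0.30), normexp (0.28) and slide as a block (0.35), for Gnrhr with array weights (-0.10) and for Fshr with slide as a block (-0.12). When a further array was left out the ranges were -0.10 to 0.12 for Gnrh1, -0.085 to 0.064 for Ghr A_44_P320858, -0.0078 to 0.13 for Ghr A_64_P041812, -0.14 to 0.33 for Gnrhr, -0.43 to -0.015 for Kiss1, 0.085 to 0.51 for Ghr A_43_P11817, 0.015 to 0.16 for Fshr and 0.16 to 0.29 for Kiss1r. Starting from 6 arrays they were -0.25 to -0.024 for Gnrh1, 0.15 to 2.78 for Gnrhr, 0.24 to 1.40 for Kiss1r, 0.12 to 0.47 for Ghr A_43_P11817, -0.15 to -0.011 for Ghr A_44_P320858 and 0.063 to 0.26 for Ghr A_64_P041812. The cause of these turns was not tested. Kiss1r kept its sign under every alternative run. Its difference ran from 0.14 to 1.40 over 6 arrays and from 0.14 to 0.29 without the array labelled sham 2. Its groups did not overlap, so leaving out, weighting or blocking arrays could not have turned that sign. With 3 and 2 arrays the tested members' 95% intervals end at ratios of 0.529 to 0.928 below and 1.26 to 1.90 above. Differences inside them are compatible with the data. The intervals are not adjusted for the number of probes and are not limits of detection, so larger differences could also have gone uncalled. Lhcgr, Prl, Gh1 and Prlr did not pass the brightness filter in either comparison, though Prlr was bright on the array labelled sham 2.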
